A study of Homo sapiens with 23 samples.

Results

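The genes described here are a set of receptors and ligands of the platelet-derived growth factor (PDGF) and vascular endothelial growth factor (VEGF) families: PDGFRA, PDGFRB, PDGFA, PDGFB, PDGFC, PDGFD, VEGFA, VEGFB, VEGFC and KDR. They were chosen by family membership, with earlier results of these data known, as 10 of the 35438 genes in the deposited table. All 10 were found in it. The set leaves out the VEGF receptors FLT1 and FLT4 and the ligands PGF and VEGFD, which appear below among related genes. Poly(A) RNA was sequenced from 7 drug-resistant melanoma clones and from the untreated cells they came from. Clones 7, 8 and 9 grew out as colonies under vemurafenib, which inhibits mutant BRAF, and their medium still held 1 µM of it. Clones 10, 11, 12 and 13 grew out under dabrafenib combined with trametinib. Their medium still held 250 nM dabrafenib, which also inhibits mutant BRAF, and 2.5 nM of the MEK inhibitor trametinib. The untreated cells were WM989 A6-G3, a human melanoma line derived through single-cell bottlenecks, with no drug in the medium. The genotype of all groups is given as WT, and all cells grew in the same low-serum medium. Each group had 3 libraries, except clone 11 with 2. Each clone is 1 line expanded from 1 colony, so a clone's libraries show the spread within that line. Drug was present in every clone culture and absent from the untreated one, so resistance and drug exposure cannot be told apart. What separated the biological replicates of a group is not given, so p-values may reflect technical spread.

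PDGFs are secreted dimers. PDGF-A, PDGF-B and PDGF-C chains activate the receptor tyrosine kinase PDGFRA, PDGF-B and PDGF-D chains activate PDGFRB, and both receptors signal through the MAP kinase and PI3 kinase pathways. In normal tissue the receptors mark mesenchymal cells such as fibroblasts and pericytes, and PDGFRB is known as a receptor whose level can rise in BRAF-inhibitor-resistant melanoma cells. VEGF-A acts on endothelial cells through KDR (also called VEGFR2), VEGF-B binds FLT1, and VEGF-C drives lymphatic vessel growth through FLT4.

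In the mean of the 7 clones, 6 of the 9 tested genes were called higher and 0 lower than in untreated cells, against 10.9% of all tested genes called higher and 7.91% called lower. Since the genes were chosen with earlier results known, this count is not an independent test. PDGFRA, PDGFRB, PDGFB, PDGFC and VEGFC were tested through their levels in the clones. They were too near 0 in untreated cells to be called lower. PDGFRB, VEGFC and PDGFC stood far above untreated cells in all 7 clones. PDGFRA was called higher in all 7 as well, but by amounts on the log2 scale that ran from 1.29 in clone 11 to 5.43 in clone 9. PDGFA and VEGFA were called higher in 6 of 7 clones each. VEGFB, the most abundant VEGF ligand in untreated cells, was called in none of the 7 clones, and KDR stayed below 1 TPM in every library. The clones differed most in PDGFRA and PDGFD, which were both highest in clones 9, 10 and 12 and both lowest in clones 7, 8 and 11.

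Levels are given as scaled TPM (transcripts per 1000000), transcript levels relative to the library total after a scaling between libraries, a unit that accounts for transcript length and keeps no sequencing depth. Depth is therefore unknown, and the spread between libraries is the error. For the mean of the clones too, the SE and p-value come from the spread of libraries within groups. They leave out the spread between clones, so they do not measure how far a further clone might differ. Fold changes are log2 differences of scaled TPM + 1, which understates the change of genes that are near 0 in untreated cells. A gene was called when limma's Benjamini-Hochberg adjusted p over 15657 tested genes was under 0.05 and the log2 fold change was at least 1 in size.

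The promoters of 4 of these genes are shown because they belong to the pair with the largest rise in the mean of the clones, PDGFRB and VEGFC, and to the pair that differed most among clones, PDGFRA and PDGFD. Each runs 5′ to 3′ on the gene's strand from 250 bases before to 50 bases after the start of the gene, from RefSeq on GRCh38.p14. Capitals mark matches to the motifs given after the sequences. The PDGFRB promoter is at chr5:150155796-150156095 (minus strand), VEGFC at chr4:176792873-176793172 (minus strand), PDGFRA at chr4:54229043-54229342 (plus strand) and PDGFD at chr11:104164098-104164397 (minus strand).
PDGFRB: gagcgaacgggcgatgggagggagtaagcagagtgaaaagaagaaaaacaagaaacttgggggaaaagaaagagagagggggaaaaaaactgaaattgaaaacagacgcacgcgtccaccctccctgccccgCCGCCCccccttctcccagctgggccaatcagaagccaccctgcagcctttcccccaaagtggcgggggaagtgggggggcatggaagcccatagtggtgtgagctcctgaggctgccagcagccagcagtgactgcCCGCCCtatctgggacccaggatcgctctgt
VEGFC: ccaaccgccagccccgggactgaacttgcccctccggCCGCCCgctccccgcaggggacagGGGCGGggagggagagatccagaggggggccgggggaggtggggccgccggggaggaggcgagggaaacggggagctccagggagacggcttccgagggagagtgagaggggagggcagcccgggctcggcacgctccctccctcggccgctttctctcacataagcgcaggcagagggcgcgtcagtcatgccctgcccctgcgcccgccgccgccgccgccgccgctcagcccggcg
PDGFRA: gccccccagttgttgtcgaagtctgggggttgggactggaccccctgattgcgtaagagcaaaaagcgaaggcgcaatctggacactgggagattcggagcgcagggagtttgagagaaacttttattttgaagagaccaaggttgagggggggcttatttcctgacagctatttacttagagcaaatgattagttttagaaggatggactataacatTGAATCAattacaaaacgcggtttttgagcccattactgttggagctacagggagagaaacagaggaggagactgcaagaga
PDGFD: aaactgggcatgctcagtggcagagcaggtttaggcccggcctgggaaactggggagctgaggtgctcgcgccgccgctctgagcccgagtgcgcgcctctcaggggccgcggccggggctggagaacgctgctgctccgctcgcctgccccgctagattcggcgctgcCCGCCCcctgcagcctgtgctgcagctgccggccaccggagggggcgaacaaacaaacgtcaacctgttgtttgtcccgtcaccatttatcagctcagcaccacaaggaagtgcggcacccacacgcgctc

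RefSeq promoters were matched for 7 of the 10 genes, the others being PDGFB, PDGFC and VEGFA. A set of 5 motifs was searched on both strands. The AP-1 motif was TGANTCA, the motif of the TEAD factors was GGAATG, and the core of the hypoxia-inducible factor site was ACGTG. The GC box was searched as GGGCGG and the TATA box as its core TATAAA. The PDGFRA promoter held 1 AP-1 match, found in 7.71% of 35116 promoters of the same length, and none of the other motifs. It had a GC content of 47%, against a median of 58.7% over all promoters. PDGFRB held 2 GC boxes, VEGFC 2 and PDGFD 1, a motif found in 45% of promoters, and these 3 promoters held no match to the others. Their GC contents were 59.3% for PDGFRB, 76.3% for VEGFC and 67.3% for PDGFD. The promoters of PDGFA with 4 matches, VEGFB with 9 and KDR with 2 also held only GC boxes. TEAD matches occurred in 14% of promoters, hypoxia core matches in 21.4% and TATA matches in 11.5%, and none of the 7 promoters held one. No promoter held matches to 2 different motifs, so capitals of different motifs could not overlap, while some neighbouring GC boxes of VEGFB share bases. These matches describe letters in a window and not bound sites.

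The label of the parent held for its lineage markers: melanocyte markers summed to between 22.1 and 466.6 TPM in clone libraries and to between 11970 and 12330 TPM in untreated libraries, and all 7 were called lower in the clones. Endothelial markers summed to between 9.38 and 27 TPM in clone libraries and to between 21.7 and 26.2 TPM in untreated libraries. EGFL7 was the largest part by mean level in every group. Of 5 tested, 0 were called in either direction in the clones' mean. In single clones, VWF was called higher in 3 and PECAM1 in 1, and EGFL7 was called lower in 2. With a pseudocount of 0.1 in place of 1, VWF (2.02 on the log2 scale) and PECAM1 (1.54) were called higher and TIE1 (-1.45) lower. CDH5, TEK, CLDN5, ESAM and ERG, which define endothelium, were below 1 TPM in every library. ERG still averaged between 0.042 and 0.296 TPM in the clones, with a highest library of 0.017 TPM in untreated cells. ROBO4, of the same list, averaged between 0.179 and 0.759 TPM in the clones, with a highest library of 0.014 TPM in untreated cells. Both overlapped untreated cells, since 1 library of clone 10 lists ERG at 0 and 1 lists ROBO4 at 0. ERG also overlapped them in clone 12, where its lowest library had 0.012 TPM. Fibroblast markers summed to between 2073 and 7852 TPM in clone libraries and to between 58.3 and 68.3 TPM in untreated libraries, with 6 of 6 tested called higher, while THY1 and TCF21 of that list were below 1 TPM in every library. Of 6 immune markers, 2 were tested and CD68, which is not specific to immune cells, rose by 1.03, while the T cell marker CD3E was at or near 0. The list summed to between 141 and 745 TPM in clone libraries and to between 159.2 and 163.8 TPM in untreated libraries. The part of these marker levels in the results was not tested. These are bulk samples, so fewer cells of a type and less RNA per cell cannot be told apart. Libraries differed in detected genes, from 14415 with a value above 0 in clone 10 replicate 1 to 24039, and clone 8 replicate 3 had the highest scaling factor (1.35). The mitochondrial share of TPM moved with the comparison to untreated cells: it lay between 6.74% (clone 8 replicate 3) and 15.6% in clone libraries and between 20.6% and 21.2% in untreated libraries. Its part in the results was not tested.

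**Figure D1:**
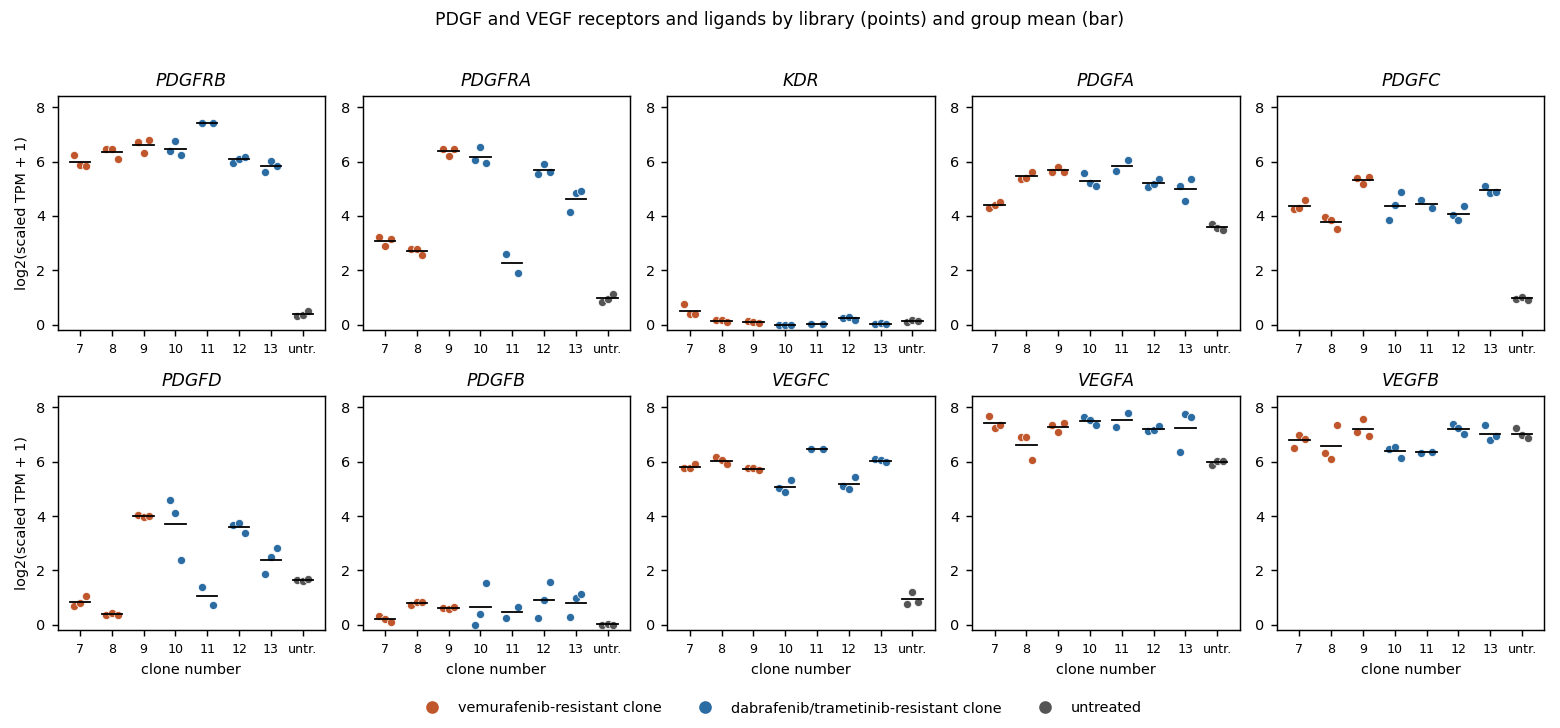
Level of each of the 10 genes in every library, as log2(scaled TPM + 1), for clones 7 to 13 and untreated cells (untr.). Points are libraries, bars are group means and colors give the drug arm. PDGFRB, VEGFC, PDGFC, PDGFRA and PDGFA separate all clone libraries from untreated ones, and VEGFA does so narrowly. PDGFRA and PDGFD spread widely among clones.

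Of the receptors, PDGFRB, which lies on chromosome 5, was nearly silent in untreated cells and abundant in every clone. PDGFRB stood at 74.9, 58.4 and 55.6 scaled TPM in clone 7, while clone 8 had 87.1, 87.5 and 67.0 and clone 9 had 104, 79.6 and 109. Clone 10 had 82.9, 107 and 74.1, clone 11 had 171 and 169.6, clone 12 had 61.3, 67.8 and 71.0 and clone 13 had 48.7, 63.4 and 56.8, against 0.23, 0.29 and 0.41 in untreated cells. The lowest clone library was above the highest untreated library, and both clone 11 libraries were above all others. The log2 fold change of the clones' mean was 6.00 (SE 0.12, adjusted p = 2.64e-18). Single clones ranged from 5.44 in clone 13 (SE 0.16) to 7.03 in clone 11 (SE 0.17), and all 7 were called. In descending order of PDGFRB the groups ran clone 11, 9, 10, 8, 12, 7, 13 and untreated. The step between clones 11 and 9 had an adjusted p of 0.00224 but a difference under the fold minimum. No step between neighbours among the other 6 clones reached an adjusted p of 0.05, the lowest being 0.225. Clone 11 was called above clones 7, 8, 12 and 13, and these were the 4 called pairs of 21 for PDGFRB, against 6.16% of gene and pair combinations over all genes.

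PDGFRA, on chromosome 4, rose in all 7 clones too, but by amounts that differed up to 4.14 on the log2 scale. It stood at 8.29, 6.43 and 7.81 scaled TPM in clone 7, while clone 8 had 5.90, 5.95 and 4.93 and clone 9 had 88.3, 73.2 and 88.3. Clone 10 had 65.2, 91.2 and 60.1, clone 11 had 5.09 and 2.73, clone 12 had 45.6, 58.5 and 48.1 and clone 13 had 16.8, 27.5 and 28.9, against 0.77, 0.91 and 1.20 in untreated cells. Libraries of clones 9, 10 and 12 lay above those of clone 13, which in turn lay above all libraries of clones 7, 8 and 11. The log2 fold change over untreated cells was 5.43 in clone 9, 5.20 in clone 10, 4.72 in clone 12 and 3.66 in clone 13 (SE 0.21 each). It was 2.12 in clone 7, 1.75 in clone 8 (SE 0.21 each) and 1.29 in clone 11 (SE 0.23, adjusted p = 0.000138). The log2 fold change of the clones' mean was 3.45 (SE 0.16, adjusted p = 4.73e-13), an SE that leaves out this spread between clones. The call in clone 11 rested on replicate 2, since without it the log2 fold change was 0.93. In descending order the groups ran clone 9, 10, 12, 13, 7, 8, 11 and untreated. The steps from clone 12 to 13 (adjusted p = 0.0044), from clone 13 to 7 (adjusted p = 3.37e-05) and from clone 11 to untreated were called. The steps from 9 to 10 (adjusted p = 0.465), 10 to 12 (0.159), 7 to 8 (0.28) and 8 to 11 (0.154) were not. Of the 21 pairs of clones, 15 were called for PDGFRA.

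KDR was not tested because it did not reach 1 TPM in any library. It was at 0.71, 0.31 and 0.30 scaled TPM in clone 7, at or below 0.22 in every library of the other clones, and at 0.06, 0.14 and 0.08 in untreated cells. All 3 clone 10 libraries listed it at 0. With no filter on low values, the log2 fold change of KDR was 0.02 over the mean of the clones (adjusted p = 0.85) and 0.38 in clone 7 (adjusted p = 0.000553), under the fold minimum. PDGFRA, KIT and KDR are neighbours on chromosome 4 in RefSeq's gene order, and KIT, the stem cell factor receptor between them, was at or below 0.331 TPM in clone libraries and between 0.501 and 0.623 TPM in untreated libraries. Of these 3 neighbouring receptor genes, PDGFRA alone was high enough to be tested.

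The balance of the PDGF receptors ranged more widely over the clones than their sum. PDGFRB and PDGFRA together reached between 70.5 TPM in clone 7 and 180.7 TPM in clone 9, against 1.27 ± 0.309 TPM in untreated cells (SD, n = 3). The ratio of PDGFRB to PDGFRA was 1.17 ± 0.0724 in clone 9, 1.22 ± 0.0512 in clone 10 and 1.33 ± 0.159 in clone 12 (SD, n = 3 each). It was 2.39 ± 0.475 in clone 13, 8.41 ± 1.12 in clone 7 and 14.4 ± 0.649 in clone 8 (SD, n = 3 each), and 33.6 and 62.1 in the 2 libraries of clone 11. Untreated cells had a ratio of 0.319 ± 0.0192 (SD, n = 3), the only group with less PDGFRB than PDGFRA. Clones 9 and 11 had nearly the same sum, 180.7 ± 24.3 TPM and 174.1 ± 2.57 TPM (SD, n = 3 and 2), with PDGFRA making up 46.2% of it in clone 9 and 2.24% in clone 11. ACTA2, the smooth muscle actin gene and a pericyte and smooth muscle marker, was highest in the 3 clones lowest in PDGFRA. It averaged 4403 TPM in clone 11, 3058 TPM in clone 8 and 1433 TPM in clone 7, then 480 TPM in clone 9, 80.5 TPM in clone 13 and 39.9 TPM in clone 12, against 11.6 TPM in untreated cells. Clone 10 had 88.8, 11.4 and 9.24 TPM of ACTA2, so that only its replicate 1 lay above the untreated libraries. Over its whole list, the clones' mean had 4 of 8 tested genes called higher, against 10.9% of all genes. CSPG4, also on that list, was the 1 called lower, against 7.91% of all genes. Its log2 fold change was -2.55, and it was called lower in each of the 7 clones. The list's summed level ran from 26.5 to 4864 TPM in clone libraries and from 108 to 118 TPM in untreated libraries. For RGS5, a defining pericyte gene, the log2 fold change was -0.31 (adjusted p = 0.123). The part of these markers in the receptor balance was not tested.

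**Figure D2:**
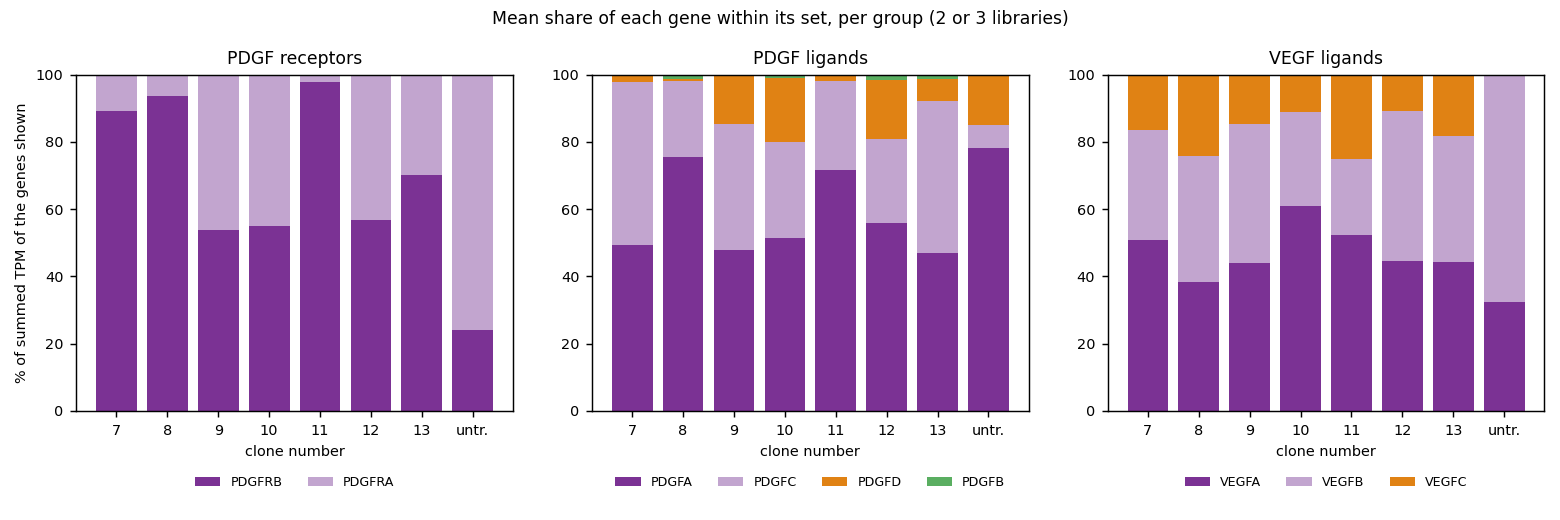
Mean percentage of summed TPM that each gene makes up within the PDGF receptors, the PDGF ligands and the VEGF ligands, for clones 7 to 13 and untreated cells (untr.), with 2 or 3 libraries per group. PDGFRA takes over 40% of receptor TPM in clones 9, 10 and 12 and 2.24% in clone 11, and VEGFC is visible in all clones but not in untreated cells.

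Among the PDGF ligands, PDGFC rose most. PDGFC, a ligand secreted in a latent form and released by proteases, stood at 18.1, 18.6 and 23.0 scaled TPM in clone 7, while clone 8 had 14.7, 13.5 and 10.6 and clone 9 had 41.0, 35.3 and 42.6. Clone 10 had 13.5, 20.1 and 28.5, clone 11 had 23.0 and 18.6, clone 12 had 15.5, 13.4 and 19.7 and clone 13 had 33.1, 27.7 and 28.7, against 0.94, 1.04 and 0.90 in untreated cells. Every clone library was above every untreated library. The clones' mean lay above untreated cells by 3.51 on the log2 scale (SE 0.15, adjusted p = 1.98e-13), from 2.82 in clone 8 to 4.37 in clone 9 (SE 0.20 each), with all 7 clones called. In order of level, the step from clone 8, the lowest clone, to untreated cells was called (adjusted p = 6.17e-10), and no step between neighbouring clones was, the lowest adjusted p being 0.13. Clone 8 was called below clones 9 and 13, and clone 9 above clone 12, which makes 3 pairs of 21, and 5 were called without clone 9 replicate 2.

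PDGFD, the latent ligand of PDGFRB, was the 1 gene of the 10 that was called higher in some clones and lower in another. It stood at 15.5, 14.5 and 15.2 scaled TPM in clone 9, while clone 10 had 23.3, 16.5 and 4.17, clone 12 had 11.7, 12.5 and 9.26, and clone 13 had 2.64, 4.63 and 6.10. Clone 7 had 0.63, 0.74 and 1.09, clone 8 had 0.29, 0.35 and 0.28, and clone 11 had 1.62 and 0.66, against 2.13, 2.04 and 2.19 in untreated cells. All libraries of clones 9, 10, 12 and 13 were above the untreated ones, and all libraries of clones 7, 8 and 11 were below them. PDGFD was called higher in clones 9 (log2 fold change 2.36, adjusted p = 2.96e-05), 10 (2.06, adjusted p = 0.000126) and 12 (1.95, adjusted p = 0.000244), and lower in clone 8 (-1.26, adjusted p = 0.00889). The values in clone 13 (0.75, adjusted p = 0.104), clone 7 (-0.79, adjusted p = 0.0904) and clone 11 (-0.58, adjusted p = 0.283) did not pass. Clone 13 was called without its replicate 1 (1.02), and clone 7 was called lower with a pseudocount of 0.1 (-1.31). Of all tested genes, 0.422% were called higher in at least 1 clone and lower in another. The order of the groups was clone 9, 10, 12, 13, untreated, 11, 7 and 8, and no step between neighbours passed, the lowest adjusted p being 0.0786 between clones 12 and 13. Between clones, 14 of 21 pairs were called. The mean over the clones, 0.64 on the log2 scale (SE 0.28, adjusted p = 0.0601), averaged over both directions.

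PDGFA, a ligand of PDGFRA that untreated cells already made, was called higher in all clones but clone 7. It stood at 18.8, 20.1 and 21.8 scaled TPM in clone 7, while clone 8 had 40.6, 41.0 and 48.3 and clone 9 had 48.6, 54.4 and 48.0. Clone 10 had 46.8, 35.6 and 33.2, clone 11 had 49.0 and 65.4, clone 12 had 32.5, 35.4 and 40.2 and clone 13 had 33.0, 22.6 and 40.3, against 12.2, 10.9 and 10.3 in untreated cells. Every clone library was above every untreated library, with clone 7 closest. The clones' mean lay above untreated cells by 1.67 on the log2 scale (SE 0.13, adjusted p = 1.54e-09). By clone it ran from 0.81 in clone 7 (SE 0.17, adjusted p = 0.000667), under the fold minimum, to 2.25 in clone 11 (SE 0.19). Clone 7 was called below clones 8, 9 and 11, and no other pair was called. The share of PDGFA in PDGF ligand TPM ran from 47.1% ± 6.22 in clone 13 to 75.5% ± 4.47 in clone 8, against 78.2% ± 1.502 in untreated cells (SD, n = 3 each). PDGFC was the second ligand by group mean in every clone, while libraries of clones 7, 10 and 13 disagreed on the order.

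PDGFB, which can activate both receptors, was low everywhere and listed at 0 in some libraries. It was at 0.23, 0.16 and 0.06 scaled TPM in clone 7, while clone 8 had 0.66, 0.77 and 0.77, clone 9 had 0.54, 0.51 and 0.56, and clone 10 had 0, 0.32 and 1.93. Clone 11 had 0.19 and 0.59, clone 12 had 0.20, 0.87 and 2.00, and clone 13 had 0.22, 0.96 and 1.16, against 0, 0.015 and 0.0040 in untreated cells. Clone 10 replicate 1, which lists PDGFB at 0, overlapped untreated cells, and clones 10, 12 and 13 spread widely. PDGFB did not pass in the clones' mean (0.62, SE 0.25, adjusted p = 0.0372, less than the fold minimum) or in any clone. With a pseudocount of 0.1 in place of 1 it was called in the mean of the clones at 2.38. It was also called in clone 12 without replicate 1 of that clone (1.24) and in clone 13 without replicate 1 (1.03).

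Among the VEGF ligands, VEGFC changed most. VEGFC stood at 53.2, 52.8 and 59.4 scaled TPM in clone 7, while clone 8 had 70.2, 65.2 and 58.9 and clone 9 had 52.9, 53.3 and 51.1. Clone 10 had 31.4, 28.2 and 39.0, clone 11 had 88.1 and 88.0, clone 12 had 33.8, 30.8 and 42.7 and clone 13 had 67.0, 65.3 and 62.4, against 0.70, 1.28 and 0.79 in untreated cells. No clone library overlapped the untreated ones, clone 11 was highest, and clones 10 and 12 were lowest of the clones. The clones' mean lay above untreated cells by 4.83 on the log2 scale (SE 0.10, adjusted p = 4.41e-18), from 4.14 in clone 10 (SE 0.13) to 5.54 in clone 11 (SE 0.15), all 7 called. Clone 11 was called above clones 10 and 12, the only called pairs, while 4 pairs were called without clone 10 replicate 3. The steps from clone 11 to 13 (adjusted p = 0.0459) and from clone 9 to 12 (adjusted p = 0.00848) were under the fold minimum. VEGFC lies between SPCS3 and NEIL3 on chromosome 4, whose log2 fold changes were 0.90 and 1.47 in the mean of the clones.

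VEGFA, the ligand of KDR and FLT1, rose in 6 clones. VEGFA stood at 204, 151 and 162 scaled TPM in clone 7, while clone 8 had 118, 120.0 and 65.2 and clone 9 had 162, 135 and 170. Clone 10 had 200.1, 183 and 162, clone 11 had 153 and 220.5, clone 12 had 139.85, 144 and 160 and clone 13 had 80.3, 217 and 196, against 57.9, 64.3 and 64.6 in untreated cells. After scaling every clone library was above the untreated ones, with replicate 3 of clone 8 and replicate 1 of clone 13 well below the other libraries of their clones. The value of clone 8 replicate 3 rests on its scaling factor, since as deposited it had 48.4 TPM, against 49.5, 59.3 and 59.9 TPM in untreated cells. The clones' mean lay above untreated cells by 1.28 on the log2 scale (SE 0.21, adjusted p = 4.41e-05), with clones 7, 9, 10, 11, 12 and 13 between 1.23 and 1.55 and called. Clone 8 had 0.64 (SE 0.28, adjusted p = 0.07). No pair of clones was called, but 2 were without clone 8 replicate 1, without clone 8 replicate 2 or with values as deposited, and 1 was without clone 13 replicate 1. VEGFA shares 188 of its 3768 exonic bases with AL136131.3 on the opposite strand in GENCODE release 29, and no strand-specific counting is stated, so reads from the pair cannot be told apart there.

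VEGFB, a ligand of FLT1, ranged from 67.9 to 187 TPM in clone libraries, with 151, 125 and 116 TPM in untreated cells, and the groups overlapped. Its log2 fold change was -0.24 in the clones' mean (SE 0.19, adjusted p = 0.294) and ran from -0.69 in clone 11 (SE 0.28, adjusted p = 0.0507) to 0.19 in clone 12 (SE 0.25, adjusted p = 0.572). VEGFA was above VEGFB in every library of clones 7, 10 and 11 and below it in every untreated library. Libraries of clones 8, 9, 12 and 13 disagreed on which of the pair was higher. The 3 VEGF ligands summed to between 267.7 TPM in clone 8 and 360.7 TPM in clone 13, against 193.9 ± 14.7 TPM in untreated cells (SD, n = 3).

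Counted together, the 9 tested genes of the set had a median log2 fold change of 1.67 in the mean of the clones, and that of all genes was -0.01. Of the 9, clone 7 had 5 called higher (11.0% of all genes) and 0 lower (8.54%), and clone 8 had 5 higher (11.0%) and 1, PDGFD, lower (9.29%). Clones 9, 10 and 12 had 7 higher each (11.5%, 11.8% and 11.5% of all genes) and 0 lower (8.29%, 10.5% and 8.02%). Clones 11 and 13 had 6 higher each (11.7% and 12.3%) and 0 lower (9.53% and 8.35%). PDGFRA, PDGFRB, PDGFC and VEGFC were called higher in each of the 7 clones, as were 4.87% of all genes, and none of the 9 was called lower in each, as 4.18% of all genes were. These 4 genes and PDGFB were too near 0 in untreated cells to be called lower in any clone. In the F test among the 7 clones, 6 of the 9 passed with a range of at least 1, against 25.3% of all genes. These were PDGFRA (range 4.14, adjusted p = 1.94e-11), PDGFD (3.62, adjusted p = 2.29e-07), PDGFRB (1.59, adjusted p = 9.79e-06), PDGFC (1.55, adjusted p = 5.40e-05), PDGFA (1.44, adjusted p = 4.10e-05) and VEGFC (1.41, adjusted p = 1.26e-06). VEGFA had a range of 0.91 (adjusted p = 0.117), VEGFB of 0.88 (adjusted p = 0.021) and PDGFB of 0.72 (adjusted p = 0.462). VEGFA passed without clone 13 replicate 1 (range 1.08), and VEGFB passed without clone 8 replicate 3 (range 1.01). Over all pairs of clones, 41 of 189 gene and pair combinations of the 9 genes were called (21.7%), against 6.16% over all genes, and PDGFRA with 15 and PDGFD with 14 made up most of them.

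**Figure D3:**
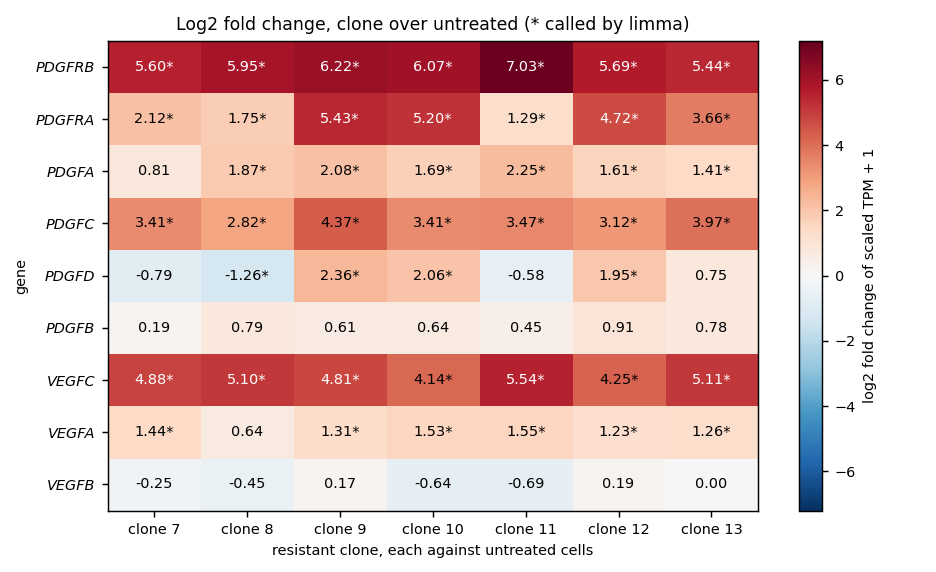
Log2 fold change of scaled TPM + 1 for each tested gene (rows) in each clone over untreated cells (columns); red is higher and blue lower in the clone, and a star marks a call. PDGFRB, PDGFRA, PDGFC and VEGFC are starred in all 7 clones, and PDGFD has both signs.

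The drug arms did not separate these genes at this number of clones. With each clone as 1 value, PDGFRA means were 5.59, 7.51 and 83.3 TPM in the 3 vemurafenib clones, against a lowest, median and highest of 3.91, 37.6 and 72.2 TPM in the 4 dabrafenib/trametinib clones. Each arm thus held clones with high and with low PDGFRA. The log2 difference, vemurafenib minus dabrafenib/trametinib, was -0.62 with a 95% interval of -3.25 to 2.01 for PDGFRA, and -0.94 (-3.17 to 1.29) for PDGFD. For VEGFA, with the lowest p of the 9, it was -0.26 (-0.74 to 0.21, adjusted p = 0.577), and for PDGFRB -0.14 (-0.97 to 0.70). limma called 0 of the 9 genes, and 0 had an unadjusted p under 0.05, while 2 genes of all tested (0.0128%) were called. Since the interval of PDGFRA reaches from -3.25 to 2.01, these data do not show that the arms were alike.

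Related receptors and ligands of the same kinase classes were counted from a list of 11, of which 7 were tested. In the mean of the clones 5 rose and 0 fell, against 10.9% of all genes called higher and 7.91% called lower. KITLG, IL34, CSF1R and FLT1 were below 1 TPM in every untreated library. They were tested through their levels in the clones and could not be called lower. CSF1, the ligand of CSF1R, stood at clone means between 34.2 and 105.6 TPM, against 1.04 ± 0.123 TPM in untreated cells (SD, n = 3), a rise of 5.01 on the log2 scale (SE 0.12, adjusted p = 4.37e-17). KITLG, the ligand of KIT, rose by 3.49 and IL34, the other ligand of CSF1R, by 2.73. CSF1R, whose gene lies beside PDGFRB on chromosome 5, rose by 1.45 (SE 0.20, adjusted p = 4.93e-06). It averaged 8.55 TPM in clone 11, 6.05 in clone 8, 2.59 in clone 7, 2.58 in clone 13, 2.47 in clone 9 and 1.05 in clone 12, against 0.398 TPM in untreated cells. Clone 10 had 2.64, 0.437 and 0.568 TPM, of which only replicate 1 was well above untreated cells. Clone 11 was highest for both neighbours. FLT3LG rose by 1.07. FLT1, the receptor of VEGF-A and VEGF-B, changed by 0.79 (adjusted p = 3.34e-05), less than the fold minimum, with clone means between 0.179 and 2.26 TPM, against 0.223 TPM in untreated cells. FLT1 was called higher in 3 single clones, and in the clones' mean it was called at 1.77 with a pseudocount of 0.1. KIT, FLT3, FLT4 and VEGFD (listed as FIGF) were too low to be tested. Of these, KIT and VEGFD were lower in the clones. KIT averaged between 0.0367 and 0.2 TPM in the clones, against 0.562 TPM in untreated cells. VEGFD averaged between 0.0445 and 0.187 TPM in the clones, against 0.509 TPM in untreated cells. Single clones had 4 to 6 genes of this list called higher, against 11.0% to 12.3% of all genes. They had 0 called lower, against 8.02% to 10.5% of all genes. The list's median log2 fold change in the clones' mean was 1.45.

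Placental growth factor PGF, a FLT1 ligand singled out after its values were seen, stood at a log2 fold change of 0.29 in the clones' mean (adjusted p = 0.0887) and differed among clones (range 1.74, adjusted p = 1.03e-06). It averaged 3.83 TPM in clone 10, 2.67 in clone 9, 2.23 in clone 12, 2.22 in clone 13, 0.687 in clone 7, 0.533 in clone 8 and 0.442 in clone 11, against 1.07 TPM in untreated cells. As with PDGFD, clones 7, 8 and 11 lay below untreated cells and the other 4 above. Against untreated cells PGF was called in clone 10 alone (log2 fold change 1.22, adjusted p = 1.86e-05).

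Of 8 co-receptors and ligand-processing genes, all tested, 4 rose and 2 fell in the mean of the clones. Of all genes, 10.9% were called higher and 7.91% lower in that comparison. NRP1, a co-receptor of VEGF-A, rose by 5.11 (SE 0.13, adjusted p = 1.10e-16), with clone means between 24.0 and 114 TPM, against 0.815 ± 0.0312 TPM in untreated cells (SD, n = 3). CCBE1, which promotes the processing of VEGF-C, rose by 2.82, LRP1, a co-receptor that binds PDGFRB, by 1.98 and NRP2, a co-receptor of VEGF-C, by 1.45. PLAU, the urokinase that can activate PDGF-D, fell by 2.64 (SE 0.10, adjusted p = 2.69e-14). PLAT, the tissue plasminogen activator that can activate PDGF-C, fell by 1.52 (SE 0.12, adjusted p = 1.89e-09). PLAU was at or below 0.503 TPM in every clone library, listed at 0 in 1 of them, against 6.64 ± 0.576 TPM in untreated cells (SD, n = 3). The median log2 fold change of the list was 1.01.

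The following lists are read against the 10.9% of all genes called higher and the 7.91% called lower in the mean of the clones. Of 24 signaling effectors, all tested, 2 were called higher and 3 lower, counts near that background, with a median log2 fold change of -0.04, against -0.01 for all genes. The adaptor SHC1 rose by 1.36 and the kinase SRC by 1.15. PIK3R3, a regulatory subunit of PI3 kinase, fell by 3.29, the adaptor NCK2 by 2.84 and PIK3CD, a catalytic subunit of PI3 kinase, by 2.56. Of 7 genes of receptor attenuation, 1 rose and 1 fell, which is also near the background, with a median of -0.62. The phosphatase PTPRB, known from endothelium, rose by 1.24, and PTPRJ, a phosphatase that acts on PDGFRB and KDR, fell by 1.59. Among 18 genes of the hypoxia-inducible factor (HIF) axis, which regulates VEGFA, 6 rose and 1 fell, with a median of 0.62. ADM, which encodes the vasodilator adrenomedullin, rose by 4.18, the stress-response gene NDRG1 by 2.77, EPAS1, which encodes HIF-2α, by 2.26, BNIP3 by 1.38 and the lactate dehydrogenase LDHA by 1.31. HIF1A, the sixth and outside the naming rule, rose by 1.18. EGLN3, an oxygen sensor that marks HIF for degradation, fell by 1.39.

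**Figure D4:**
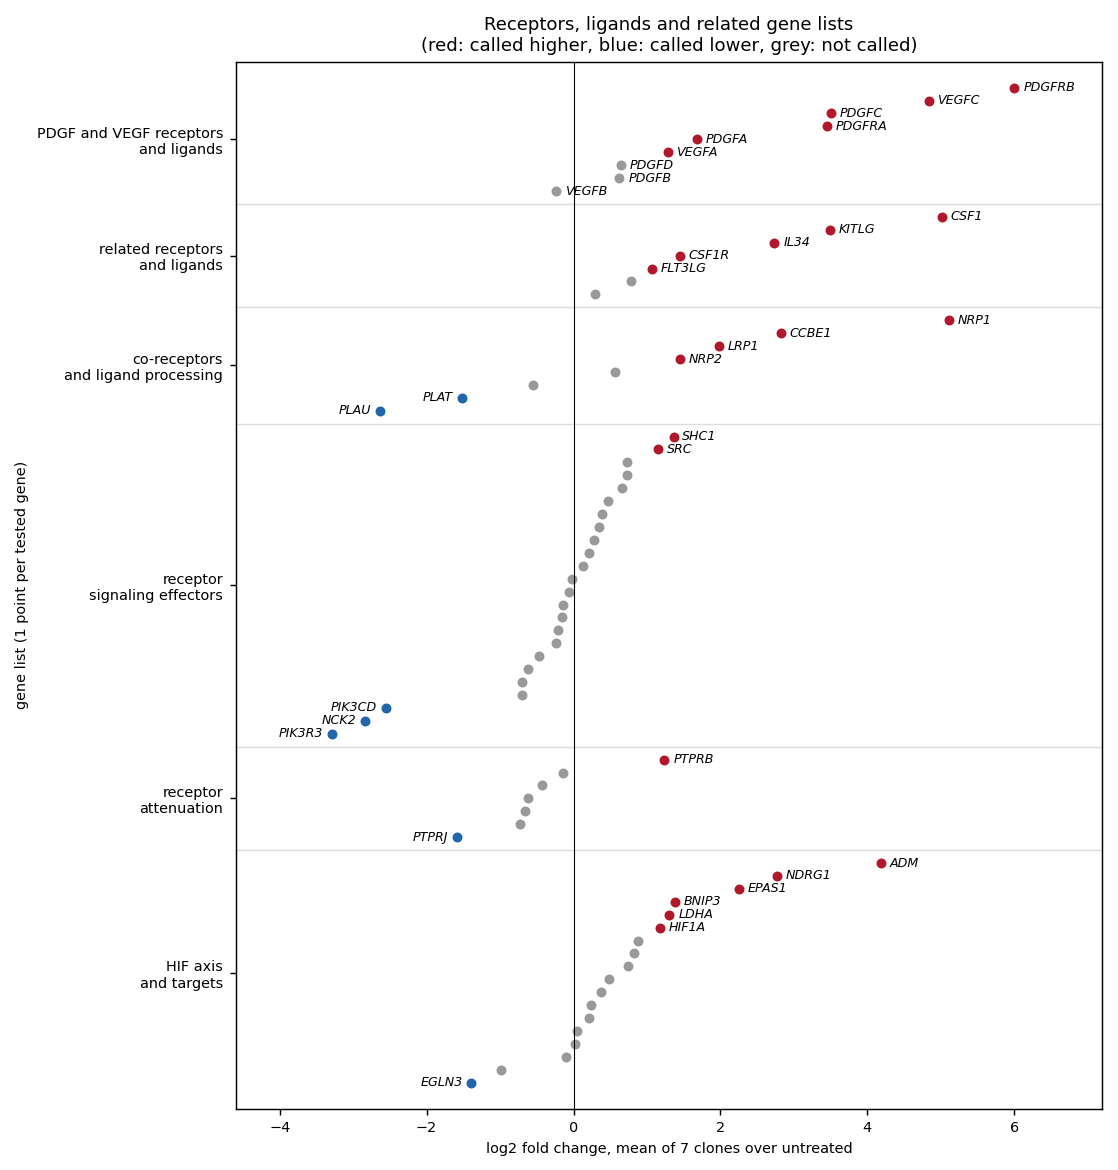
Log2 fold change of the mean of 7 clones over untreated cells for tested genes of the chosen set and of 5 related lists. Each point is 1 gene, red called higher, blue called lower and grey not called. CSF1 (5.01) and NRP1 (5.11) lie in the range of PDGFRB (6.00) and VEGFC (4.83), while most signaling effectors lie near 0.

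Genes whose pattern lay closest to each gene were found by the root mean square difference of centred mean log2 levels over the 8 groups, among 10914 genes with a highest group mean of at least 4 TPM. For PDGFRA they were MAN1C1 (0.50), EMID1 (0.51) and HSD17B2 (0.54), and for PDGFD they were TBXAS1 (0.44), MCTP2 (0.49) and MMD (0.50). PDGFRB lay closest to IFI44L (0.32), COL6A2 (0.38) and OAS2 (0.43), of which IFI44L and OAS2 are interferon-stimulated genes and COL6A2 encodes a collagen VI chain. VEGFC lay closest to RRAS (0.24), COL6A1 (0.28) and NUAK1 (0.31), PDGFC to KITLG (0.30), MSC (0.34) and RAB31 (0.35), and PDGFA to NID1 (0.19), SAMHD1 (0.20) and BOK (0.21). The lists depend on the scale: with a pseudocount of 0.1, 8 of these 18 genes stayed among the 3 nearest.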

How the data were processed

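RNA of 23 libraries was extracted and prepared in randomised order, per the labels' protocols. The deposited table holds 1 TPM value per gene and library, with kallisto and hg19 named in the submitters' processing notes; it is named as counts, but every column sums to 1000000, so the values were read as TPM. Here values were scaled by a trimmed mean of log ratios (30% of ratios and 5% of levels trimmed per side) over 10822 genes with at least 1 TPM in all libraries, giving factors from 0.877 to 1.35. Genes with at least 1 TPM in 2 libraries were tested with limma 3.58.1 in R 4.3.3 (8 groups, trend). The drug arms were compared on clone means, 3 against 4. The script recovered known changes in simulated data. The genes and lists were chosen with earlier results of these data known. Genes named beyond the 10 are up to 6 per list with the largest change, the 3 nearest patterns per gene, chromosomal neighbours and markers. A gene of the immune marker list is not reported here. Alternatives were the pseudocount, filter, scaling, trend, a replicate block and each library left out.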

Additional observations from a re-analysis of the deposited data

Results flagged for a closer look

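Between clones, 6 of the genes differed by the F test among 7 clones. The range of clone means on the log2 scale was 4.14 for PDGFRA, 3.62 for PDGFD, 1.59 for PDGFRB, 1.55 for PDGFC, 1.44 for PDGFA and 1.41 for VEGFC, against 25.3% of all tested genes that passed. KDR in clone 12, at a mean of 0.176 TPM, stood apart from the other 3 dabrafenib/trametinib clones, at a level too low to be tested. Such a rule flags about 1 in 20 groups of 4 by chance.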

How the results depend on the processing

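The numbers of the 10 genes called, by comparison and over all pairs of clones, stayed within 1.5 times of the reported ones under every alternative run. With 1 library left out they were 6 to 6 in the mean of the clones, 5 to 6 in clone 11, 7 to 8 in clone 12, 6 to 8 in clone 13, 6 to 7 in the F test, 39 to 45 over the pairs and 0 to 0 between arms. Replicate numbers paired no libraries: same-numbered libraries had a median correlation of deviations of 0.014 over 77 pairs and 9 of 23 libraries were nearest to their own number; with a replicate block 6 genes were called in the mean of the clones. The signs that turned belonged to values that were not called. VEGFB in clone 13 was 0.19 with values as deposited, 0.0003 with median scaling and 0.0076 without clone 8 replicate 3 and clone 10 replicate 1, a pair chosen after seeing the data. Between arms PDGFC was -0.11 as deposited, and VEGFB was -0.051 as deposited and -0.0026 without that pair, while PDGFC was 0.104 without clone 8 replicate 3 and clone 13 replicate 1, also chosen after seeing the data. With 1 library left out, VEGFB ran from -0.16 to 0.11 in clone 13 and from -0.0045 to 0.30 in clone 9. Between arms, leaving out 1 clone or 1 library gave 0.053 for PDGFRA without clone 8, 0.027 for PDGFRB without clone 7 and 0.015 for PDGFA without clone 11. PDGFC was -0.085 without clone 12 and -0.028 without clone 10 replicate 1. VEGFB was -0.064, -0.0077 and -0.025 without clones 9, 10 and 11 and -0.013 without clone 8 replicate 3, and VEGFC was -0.041 and -0.0017 without clones 10 and 12. The full ranges were -1.78 to 0.053 for PDGFRA, -0.34 to 0.19 for PDGFRB, -0.40 to 0.23 for PDGFA, -0.29 to 0.003 for PDGFB, -0.38 to 0.40 for PDGFC, -0.064 to 0.27 for VEGFB and -0.041 to 0.43 for VEGFC. A pseudocount of 0.1 called PDGFB in clones 8 (2.97), 9 (2.58), 10 (2.05), 12 (3.00) and 13 (2.83) and PDGFD lower in clone 7 (-1.31). Without clone 13 replicate 1, VEGFA was called in the F test (range 1.08), as were PDGFD (1.02) and PDGFB (1.03) in clone 13; without clone 8 replicate 3, VEGFB was called in the F test (1.01), and without clone 12 replicate 1, PDGFB in clone 12 (1.24). The 2 genes called between arms of all tested became 0 to 12. The median of all genes was -0.01 after scaling and 0.14 as deposited. TPM holds no depth, so precision at low levels is unknown.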

Other observations

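Within groups, VEGFA and VEGFB often ran in opposite order. In 6 of 8 groups the library with the highest VEGFA was the one with the lowest VEGFB, and with the values as deposited this held in 5 of 8. In 7 of 8 groups the library with the highest VEGFB also had the highest scaling factor of its group. The 3 libraries of clone 8 had VEGFA at 118, 120.0 and 65.2 scaled TPM and VEGFB at 78.2, 67.9 and 160.0, and those of clone 13 had VEGFA at 80.3, 217 and 196 and VEGFB at 162, 110 and 123. The part of the scaling in this was not tested.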
